A study of Mus musculus with 2 samples.

Results

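The macrophages described here are those with a DNA replication programme and little mitotic RNA, in tumours of mice under PD-1 blockade. They were chosen by their own counts of unique molecular identifiers (UMIs, the tags that mark single RNA molecules): at least 1% of UMIs from the complement genes C1qa, C1qb and C1qc, none from Cd3d, Cd3e or Cd3g, at least 8 from Mcm3, Mcm5, Mcm6 and Mcm7 together and at most 1 from the mitotic genes Mki67, Top2a and Birc5. The rule found 223 S-phase macrophages among 5641 C1q macrophages and 7005 barcodes. The study comprised 2 single-cell libraries of CD45+ leukocytes sorted from subcutaneous MC38-GFP+ tumours, a mouse colon adenocarcinoma line, in C57BL/6 mice. Every mouse had received 50000 tumour cells and 100 ug of anti-PD-1 antibody, a dose described as sub-optimal, on days 12, 15, 18 and 22. One library came from non-responder tumours and 1 from responder tumours, so the comparison asks how these macrophages differed with the outcome of treatment. Age and the number of mice behind a library were not given in the labels, and no untreated group was analysed here.

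With 1 library per response group no difference has a replicate check, and no test was made. Levels are given in CPM: the UMIs of a gene were summed over the cells of a group and scaled to the total UMIs of that group. The libraries held 2580 (non-responder) and 4425 (responder) barcodes with 32032569 and 45866561 UMIs, of which 2565 and 4376 barcodes had at least 500 genes and at most 10% mitochondrial UMIs. Paired values below give the non-responder library before the responder library. Brackets give 95% intervals, which cover counting error only. They are exact, except for differences between library contrasts, which have a normal approximation on the log scale.

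Before a cell divides it copies its genome once, in S phase. In the preceding G1 phase the origin recognition complex, Cdc6 and Cdt1 load the ring of Mcm2 to Mcm7 onto origins, and at S phase entry Cdc45 and the GINS proteins turn that ring into the active helicase. Polymerases, the sliding clamp PCNA and a supply of deoxynucleotides then carry synthesis, while Ung removes uracil from the new strands. E2F transcription factors switch on many of these genes together at the end of G1. Tissue macrophages can renew themselves by division, and those of tumours are replenished both from blood monocytes and by local proliferation.

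The non-responder library gave 116 S-phase macrophages and the responder library 107. They carried a median of 11 and 10 UMIs of the 4 Mcm genes, with a highest value of 26 and 27. A total of 69 and 71 of them had no mitotic UMI, and 47 and 36 had 1. Just inside the threshold, 21 and 23 cells had 8 Mcm UMIs, and just outside it 29 and 34 had 7. A further 21 and 16 cells met the Mcm limit but had 2 mitotic UMIs. The median depth of the S-phase cells was 16131 and 13754 UMIs per cell. The reference, C1q macrophages with at most 1 UMI of the 4 Mcm genes (low-Mcm macrophages), held 1217 and 2596 cells with medians of 11004 and 9500 UMIs. Depth therefore differed both between the cell groups and between the libraries, and its part in the selection is measured below by thinning. The libraries shared 14 barcode sequences, of which 1 marked a non-responder member and 0 a responder member. Doublets were not removed, and 1 member in each library had over 30000 UMIs.

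**Figure D1:**
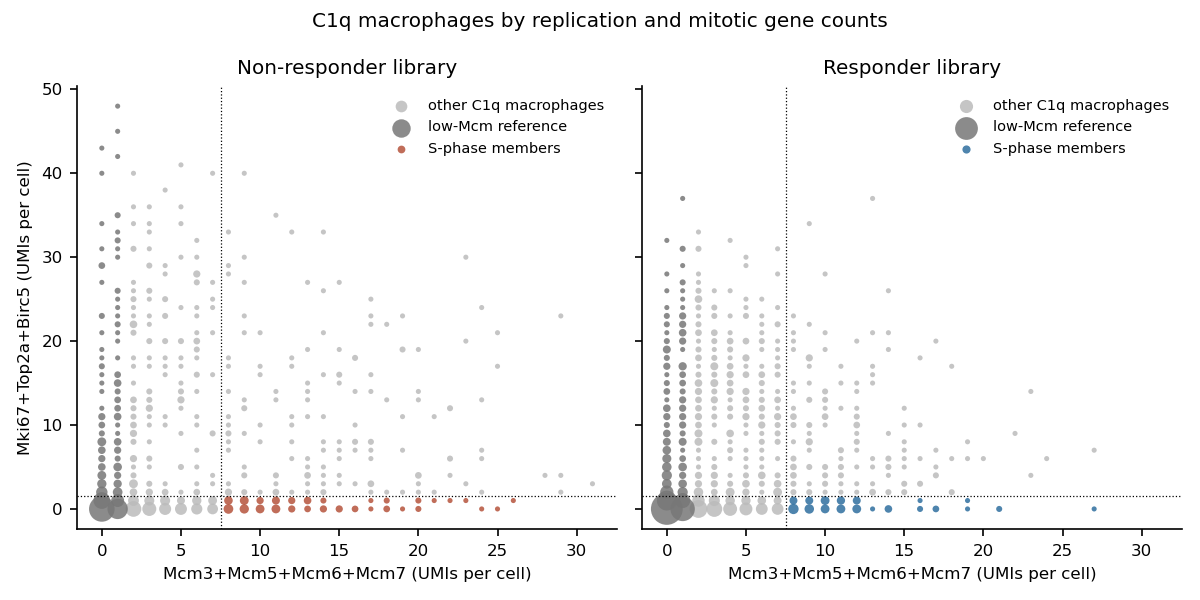
Each C1q macrophage is placed by its UMIs of Mcm3, Mcm5, Mcm6 and Mcm7 (x axis) and of Mki67, Top2a and Birc5 (y axis), with dot area growing with the number of cells at that pair of counts and dotted lines at the thresholds. The members fill the strip of 8 or more Mcm UMIs and at most 1 mitotic UMI, 116 cells in the non-responder and 107 in the responder library, and 149 further cells in each library lie above that strip.

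S-phase macrophages made up 5.86% [4.87 to 6.99] of the C1q macrophages of the non-responder library and 2.92% [2.40 to 3.52] of those of the responder library, 2.01 times as much in the non-responder library. The intervals did not overlap, but they cover counting error and not the spread between mice. With every cell thinned to 8000 UMIs, which left out 257 and 807 shallower cells, the shares were 2.32% [1.66 to 3.15] and 1.19% [0.826 to 1.66]. Among cells of 8000 to 20000 UMIs they were 6.11% and 3.62%. A limit relative to depth, 0.06% of UMIs from the Mcm genes, gave 4.65% and 3.19%, a ratio of 1.46. Macrophages with 8 or more mitotic UMIs (Mki67-high macrophages) were 14.9% and 11.4% unthinned, and 8.59% [7.31 to 10.0] and 8.23% [7.25 to 9.30] after thinning.

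The selecting genes are given as a description. Mcm3 stood at 219 CPM in non-responder and 220.2 CPM in responder S-phase cells, against 10.8 and 10.5 CPM in low-Mcm cells. The other 3 ranged from 117 CPM (Mcm7, non-responder) to 222 CPM (Mcm6, responder). Both libraries were held to the same minimum of these UMIs. Ung (GRCm38 chr5:114130386-114139323), a marker that the selection did not count, stood at 36.1 [28.1 to 45.6] CPM in non-responder and 61 [49 to 74.9] CPM in responder S-phase cells, against 2.43 and 1.86 CPM in low-Mcm cells. Cdt1 stood at 31.9 [24.5 to 40.9] and 48.1 [37.6 to 60.7] CPM, against 7.36 and 9.88 CPM. Both markers were thus higher in S-phase cells of both libraries, and both were higher in the responder than in the non-responder members. The responder members were also shallower (median 13754 against 16131 UMIs), and their 4 Mcm genes together stood at 793 against 721 CPM. The part of depth in the marker difference was not tested.

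The promoters of the 4 selecting genes, of Cdt1 and of Hells, the gene with the highest ratio outside the selection, are shown because these genes were higher in the members. For the 4 selecting genes this is set by the rule, and joint expression within single cells was not measured. Each window runs from 250 bases before to 50 bases after the start in RefSeq (build GRCm38.p6). Capitals mark matches to 2 letter strings of the E2F type, TTTCCCGC (reverse complement GCGGGAAA) and TTTGGCGC (reverse complement GCGCCAAA), searched on both strands. The windows are Mcm3 chr1:20820263-20820562, minus strand; Mcm5 chr8:75109259-75109558, plus strand; Mcm6 chr1:128359656-128359955, minus strand; Mcm7 chr5:138171834-138172133, minus strand; Cdt1 chr8:122567765-122568064, plus strand; and Hells chr19:38930740-38931039, plus strand. The RefSeq starts of Mcm5 and Mcm6 lie upstream of the transcript starts in GENCODE M21.
Mcm3: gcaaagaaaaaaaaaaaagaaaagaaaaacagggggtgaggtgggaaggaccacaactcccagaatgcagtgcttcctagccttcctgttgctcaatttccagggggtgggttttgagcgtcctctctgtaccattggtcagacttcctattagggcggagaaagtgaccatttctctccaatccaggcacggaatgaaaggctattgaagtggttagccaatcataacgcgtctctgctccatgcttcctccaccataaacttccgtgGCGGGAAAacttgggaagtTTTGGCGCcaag
Mcm5: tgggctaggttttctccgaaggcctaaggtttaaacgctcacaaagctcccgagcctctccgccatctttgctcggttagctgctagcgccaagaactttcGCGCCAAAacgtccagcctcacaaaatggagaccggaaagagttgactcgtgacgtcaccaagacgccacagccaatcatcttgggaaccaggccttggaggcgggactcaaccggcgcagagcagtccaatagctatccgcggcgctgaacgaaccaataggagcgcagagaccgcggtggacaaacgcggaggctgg
Mcm6: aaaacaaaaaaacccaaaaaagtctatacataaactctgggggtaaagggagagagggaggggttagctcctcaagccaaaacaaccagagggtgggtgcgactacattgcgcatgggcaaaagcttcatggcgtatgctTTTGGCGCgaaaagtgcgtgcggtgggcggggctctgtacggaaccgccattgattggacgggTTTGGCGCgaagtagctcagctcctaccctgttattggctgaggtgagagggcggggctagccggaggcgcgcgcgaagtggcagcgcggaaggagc
Mcm7: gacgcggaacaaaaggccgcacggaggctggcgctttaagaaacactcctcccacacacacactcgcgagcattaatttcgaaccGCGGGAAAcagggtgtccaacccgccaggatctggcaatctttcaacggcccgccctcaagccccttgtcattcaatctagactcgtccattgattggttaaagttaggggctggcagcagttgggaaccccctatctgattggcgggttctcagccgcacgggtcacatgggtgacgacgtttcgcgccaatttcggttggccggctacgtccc
Cdt1: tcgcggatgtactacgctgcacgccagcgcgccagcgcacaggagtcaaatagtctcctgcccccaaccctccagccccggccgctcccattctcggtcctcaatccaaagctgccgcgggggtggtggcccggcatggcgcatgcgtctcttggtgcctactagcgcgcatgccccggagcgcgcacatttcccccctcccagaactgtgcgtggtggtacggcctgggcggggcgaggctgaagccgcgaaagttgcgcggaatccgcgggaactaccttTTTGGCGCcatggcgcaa
Hells: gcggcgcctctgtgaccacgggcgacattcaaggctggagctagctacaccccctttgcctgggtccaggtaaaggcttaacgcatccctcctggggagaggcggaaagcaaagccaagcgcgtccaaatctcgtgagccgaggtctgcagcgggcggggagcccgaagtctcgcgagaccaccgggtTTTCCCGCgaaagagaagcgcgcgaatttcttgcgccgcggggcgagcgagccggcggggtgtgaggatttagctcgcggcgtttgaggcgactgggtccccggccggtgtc
All 4 selecting genes held a match, although a further annotated start of Mcm7 did not. Across all promoters of this length, 514 of 32851 (1.56%) held one. Of the genes higher in S-phase cells of both libraries (below) 60 of 453 with a promoter (13.2%) held a match, against 255 of 6665 (3.83%) of all measured genes. The 60 include the 4 selecting genes, so this share is partly set by the rule. Among the higher genes outside the cell cycle lists and the selection, 39 of 378 (10.3%) held a match. Ung and most of the highest genes held none: among the 15 highest genes outside the selection, 2 of the 13 with a promoter, Hells and Cdca7, had a match. A match is a description of letters and was not tested as a binding site.

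Against low-Mcm cells, most measured genes of the replication lists were higher in the S-phase macrophages. The cells were chosen on the same counts, so these ratios describe the group and support nothing further. Of 8599 genes measured with at least 50 UMIs in each library, 576 (6.7%) were at least 1.5-fold higher and 307 (3.57%) at least 1.5-fold lower in both libraries. Taken by itself, the non-responder library had 13.7% of genes higher and 9.77% lower, and the responder library 11.9% and 11%. With TMM scaling, which centres the bulk of genes, the split was 418 higher and 450 lower. S-phase cells were also deeper, and among cells of 8000 to 20000 UMIs 503 genes were higher and 292 lower, of which 453 and 214 were the same genes. Of the 576, 88 belonged to the cell cycle lists and 488 did not. The median over all measured genes was 0.07 in the non-responder and 0.03 in the responder library on the log2 scale.

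Among origin licensing genes, 6 of 11 measured were higher in both libraries and none was lower. Mcm2, a further ring subunit, stood at 101 and 77.2 CPM (non-responder and responder) against 7.22 and 5.31 CPM in low-Mcm cells. Mcm4 stood at 65.9 and 56.2 CPM against 5.16 and 5.47 CPM. Gmnn, which encodes the Cdt1 inhibitor geminin, stood at 141 and 149.7 CPM against 28.6 and 30.7 CPM. The origin recognition subunits were uneven. Orc6 had log2 ratios of 2.45 and 2.56, whereas Orc4 had -0.54 and 0.59, in opposite directions. Orc1 was below the count minimum.

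For helicase activation 5 of 6 measured genes were higher (12 were listed), with Cdc45 at 17.5 and 31.2 CPM against 1.33 and 1.7 CPM and the GINS subunit Gins2 at 99.9 and 104 against 15 and 13.6 CPM. The exception was Dbf4, the activator of the Cdc7 kinase, with log2 ratios of 0.30 and -0.73. For polymerases and fork proteins 21 of 22 measured genes were higher (25 listed), and Dna2 was the exception. Their medians were 2.05 and 2.13. Pcna, the sliding clamp, stood at 199.9 and 193 CPM against 56.3 and 38.6 CPM. The replicative ligase Lig1 stood at 163 and 149.7 CPM against 16.7 and 19 CPM. Prim1, the primase subunit, had log2 ratios of 3.12 and 3.19.

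Nucleotide supply was higher in 17 of 18 measured genes, with medians of 1.42 and 1.41. Dut, which clears dUTP, stood at 96.3 and 121 CPM against 6.33 and 9.52 CPM. The ribonucleotide reductase subunit Rrm2 stood at 40.7 and 35.2 CPM against 5.3 and 5.91 CPM. Cad, which starts pyrimidine synthesis, was the exception at 1.46 and -0.21.

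Repair and checkpoint genes were higher in 12 of 13 measured (21 listed). The fork protection gene Timeless stood at 40.2 and 41.3 CPM against 2.58 and 2.71 CPM. Uhrf1, which guides maintenance methylation to newly copied DNA, had log2 ratios of 3.81 and 4.08. Chromatin assembly genes were higher in 11 of 12. Hells (GRCm38 chr19:38930915-38971051), a chromatin remodeller, stood at 43.3 [34.5 to 53.6] and 47.4 [37 to 59.9] CPM against 1.77 and 1.98 CPM, log2 ratios of 4.61 and 4.58. The histone chaperone subunit Chaf1a had log2 ratios of 3.91 and 3.03. H2afz, a replication-independent histone, was the exception at 0.10 and 0.38, but this depended on the reference. Against low-Mcm cells with at most 1 mitotic UMI all 12 were higher in both libraries. H2afz stood at 683 and 658 CPM in those cells and at 3131 and 3126 CPM in low-Mcm cells with 8 or more mitotic UMIs. In members without a mitotic UMI it stood at 1031 and 1132 CPM.

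**Figure D2:**
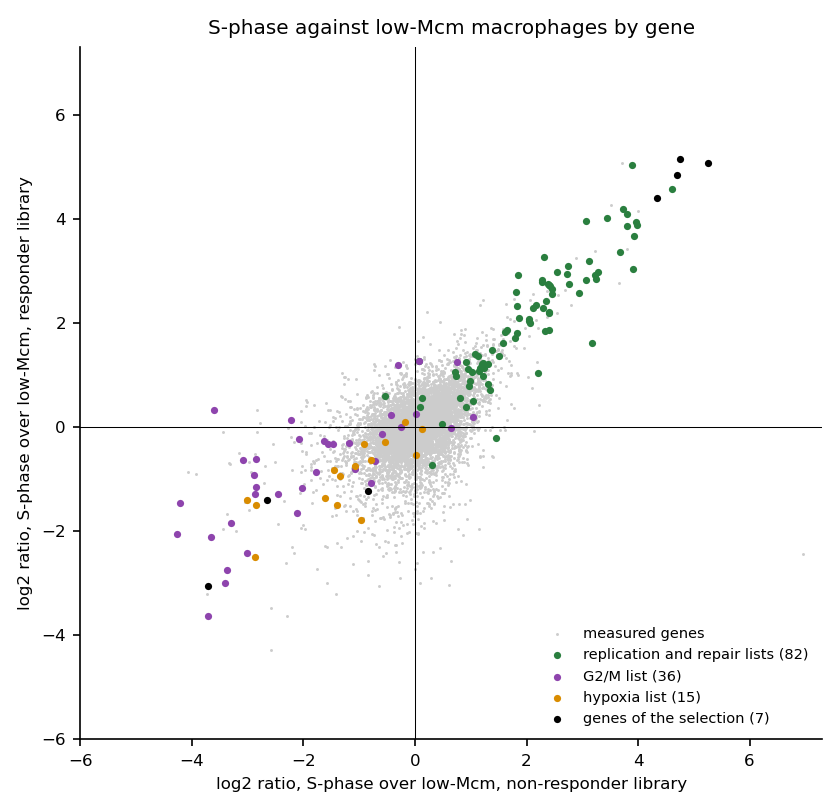
Each point is 1 of 8599 measured genes, placed by its log2 ratio of S-phase over low-Mcm macrophages in the non-responder (x axis) and responder library (y axis). Replication and repair genes lie at the upper right, with Hells at 4.61 and 4.58, G2/M and hypoxia genes mostly at the lower left, and Retnla alone at the far right at 6.95 and -2.45.

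The histone genes went the other way. Of 7 measured histone genes, which include linker histones, 6 were lower in both libraries, with medians of -1.75 and -1.96. Hist1h2bc stood at 38.1 and 7.45 CPM against 128 and 49.5 CPM, and the linker histone Hist1h1c at 20.6 and 6.1 against 94.7 and 30.1 CPM. Most histone messages of replicating cells end in a stem loop without a poly(A) tail. The molecule label reads total RNA, while the description names poly(A) RNA, and the part of this in the histone values was not tested. Of the 68 listed histone genes 61 were below the count minimum. At a minimum of 10 UMIs the responder median turned positive, to 0.74, with a 95% interval over genes of -1.43 to 1.84.

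Of the genes that govern the step from G1 into S phase, 11 of 22 were higher and 3 lower. Ccnd1 (cyclin D1) stood at 236 and 228 CPM against 115 and 121 CPM, and its kinase Cdk4 at 238 and 204 against 122 and 82.3 CPM. E2f1 had log2 ratios of 0.77 and 0.75, and the repressor E2f8 2.20 and 1.89. The 3 lower genes were the kinase inhibitors Cdkn2c and Cdkn2d and the later cyclin Ccna2. Against low-Mcm cells with at most 1 mitotic UMI, none of these 3 passed the fold downward in both libraries. Ccna2 turned direction, at 3.09 and 1.71 on the log2 scale, but its counts were near the floor. In the non-responder library it had 1 UMI in members without a mitotic UMI, 5 in members with 1 and 4 in that reference, below the count minimum. Against this reference 9 genes were higher and 1, Cdkn1a, was lower. Cdkn2d (p19Ink4d) stood at 24.2 and 16.3 CPM against 48.3 and 30.1 CPM. Ccne2 (cyclin E2), below the count minimum, stood at 10.8 and 12.9 CPM against 0.516 and 0.365 CPM.

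Genes of G2 and mitosis depended on the reference. Against all low-Mcm cells 20 of 36 were lower and 1, Cdk1, was higher, with medians of -2.05 and -0.64. Ube2c, a mitotic ubiquitin-conjugating enzyme, stood at 6.7 and 5.42 CPM against 87.4 and 67.2 CPM, and Plk1 at 1.55 and 1.35 against 16.5 and 10.9 CPM. However, 182 (15.0%) and 263 (10.1%) of the low-Mcm cells had 2 or more mitotic UMIs, which the members by definition had not. Against the low-Mcm cells with at most 1 mitotic UMI the medians of the genes measured there turned to 0.97 and 1.39. In that comparison 658 of 8136 genes (8.09%) were higher and 265 (3.26%) lower. The replication lists kept their direction there, with fork medians of 2.31 and 2.26.

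The label was checked against cells on either side of the limits. Below the Mcm limit, Ung stood at 2.72 and 1.85 CPM at 0 to 1 Mcm UMI, 12.3 and 11.2 CPM at 2 to 4, and 24.4 and 32.4 CPM at 5 to 7. Within the members it was 17.7 and 63 CPM at exactly 8 Mcm UMIs, 32.4 and 61.4 CPM at 9 to 11, and 47 and 59.1 CPM at 12 or more. The step at the limit was thus not upward in both libraries. By mitotic UMIs, Ung stood at 41.9 and 55.9 CPM in members without one, 27.7 and 70.6 CPM in members with 1, 56.3 and 50.7 CPM in excluded cells with 2 to 7, and 20.4 and 7.39 CPM at 8 or more. Cdt1 in the same bands stood at 30.5 and 43.5, 34 and 56.9, 46.4 and 48.8, and 40.1 and 48.4 CPM. Neither marker set the members apart from the excluded cells with 2 to 7 mitotic UMIs in both libraries. Rrm2 was higher in each band of mitotic UMIs. It was 21.8 and 24.8 CPM in members without a mitotic UMI, 67.9 and 54.9 CPM in members with 1, 197 and 205 CPM in excluded cells with 2 to 7, and 364 and 337 CPM at 8 or more. Tk1 (thymidine kinase) likewise went from 89.9 and 148 CPM to 412 and 405 CPM, and cyclin E2 was higher at 2 to 7 mitotic UMIs (37.3 and 32.3 CPM) than in members. The members were 43.8% and 41.8% of the 265 and 256 macrophages with 8 or more Mcm UMIs, so the rule left out most Mcm-positive macrophages, those with more mitotic RNA. DNA content was not measured, and cells late in G1 and in S phase cannot be told apart from these counts.

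**Figure D3:**
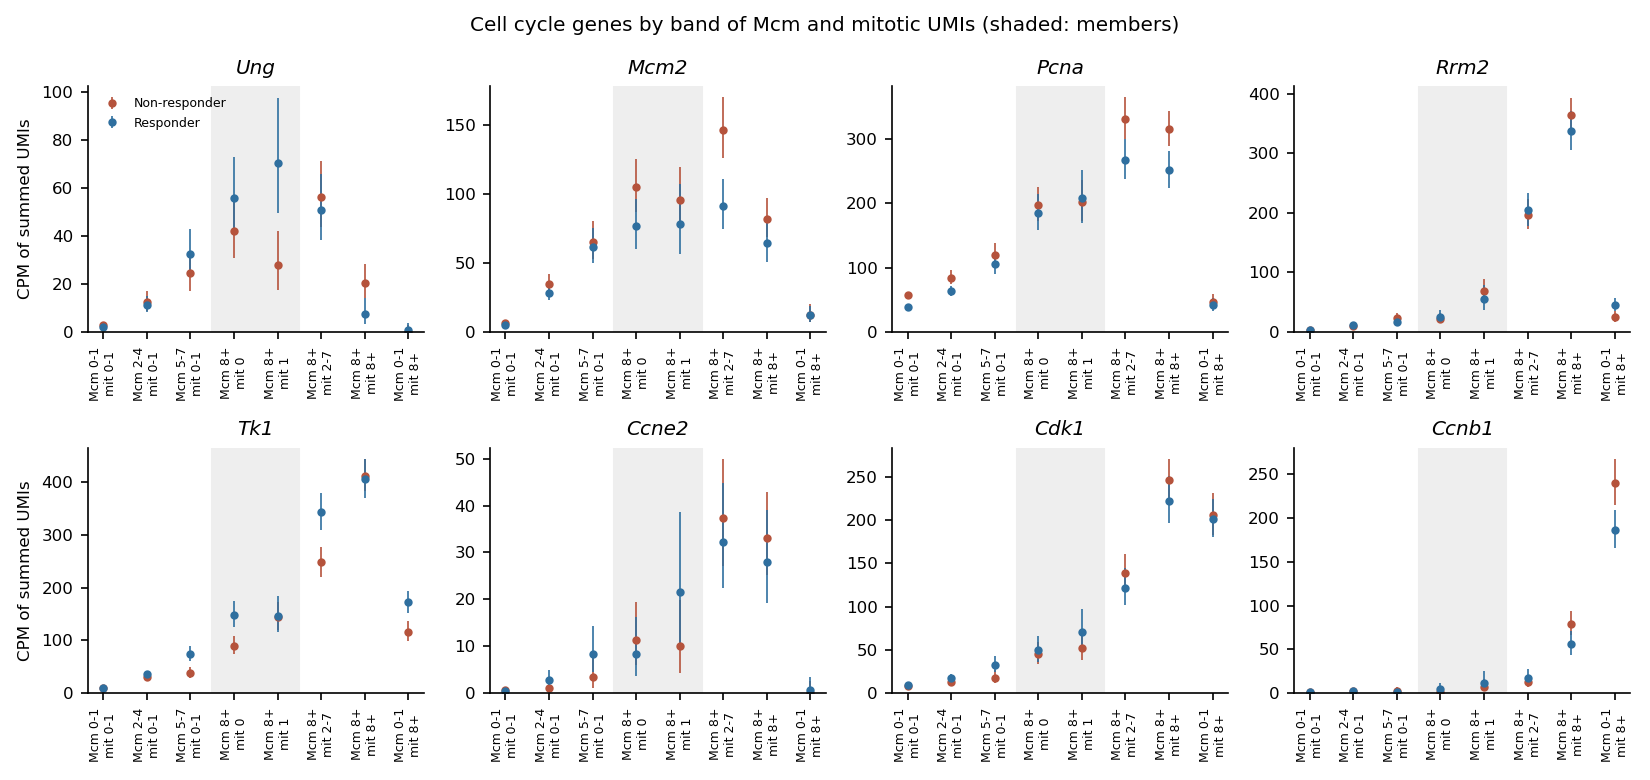
Levels (CPM of summed UMIs, with 95% counting intervals) of 8 cell cycle genes in C1q macrophages split by Mcm UMIs and by mitotic UMIs (mit), per library, with the members shaded. With 8 or more Mcm UMIs, Ung and Mcm2 are lower at 8 or more than at 2 to 7 mitotic UMIs, while Rrm2, Tk1 and Cdk1 are higher to the right of the members than in them, Rrm2 at 364 and 337 CPM.

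Mki67-high macrophages (294 and 418 cells) served as the nearest group of cycling cells. Against them 87 of 6946 measured genes (1.25%) were higher and 417 (6%) lower in the S-phase cells of both libraries. All 38 listed G2/M genes were lower. The groups were held to opposite limits, at most 1 against 8 or more mitotic UMIs, so this count is largely set by the selection. The 6 highest outside the selection were Ung, Timeless, Cdca7, Hells, Mcm4 and Mcm2. Ung stood at 36.1 and 61 CPM against 7.48 and 3.19 CPM in Mki67-high cells, and Timeless at 40.2 and 41.3 against 11 and 10.7 CPM. Of 25 measured fork genes 3 were higher and 0 lower, with medians of 0.29 and 0.35.

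Outside the cell cycle, ribosome biogenesis genes stood higher in S-phase cells and hypoxia genes lower. Of 18 measured ribosome biogenesis genes 8 were at least 1.5-fold higher than in low-Mcm cells and none lower, with medians of 0.84 and 0.56. The nucleolar scaffold gene Nolc1 stood at 76.8 and 38.6 CPM against 24.2 and 18.9 CPM, and the box C/D ribonucleoprotein gene Nop58 at 63.4 and 47.4 against 27.8 and 16.4 CPM. Myc had log2 ratios of 0.04 and -0.08. Of 15 measured hypoxia-induced genes 10 were lower and none higher. Ddit4, an inhibitor of mTORC1 signalling, stood at 5.15 and 4.74 CPM against 37.6 and 26.9 CPM. Ndrg1 stood at 5.15 and 8.13 CPM against 41.6 and 21.7 CPM, and Bnip3, a mitophagy receptor, at 123 and 92.8 against 339 and 164 CPM. Mki67-high macrophages lay nearer to the members. Hypoxia genes summed to 751 and 573 CPM in S-phase, 875 and 659 CPM in Mki67-high and 1446 and 819 CPM in low-Mcm cells. Against Mki67-high cells 2 of 14 hypoxia genes (Ddit4 and Ndrg1) were lower and 2 of 17 ribosome biogenesis genes (Gnl3 and Nop16) higher. Glycolysis genes as a list had none past 1.5-fold in both libraries (14 measured).

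The members carried the macrophage genes. Of 18 measured macrophage genes 0 were higher and 1, Cd14, was lower, at 431 and 346 CPM against 663 and 635 CPM. Csf1r, the receptor for the macrophage growth factor, stood at 620.2 and 375 CPM against 608 and 423 CPM. Among monocyte genes 3 of 10 were lower (Thbs1, Clec4e and Ly6c2). The libraries differed here. In the responder library alone 6 were past 1.5-fold downward and 0 upward, with a median of -1.03. In the non-responder library 3 were past it downward and 2 upward, with a median of -0.24. Ly6c2 stood at 25.2 and 25.7 CPM against 40.9 and 72.4 CPM.

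Genes outside every cell cycle list also stood apart. Tcf19, a gene of the G1 to S transition, stood at 21.1 and 33.9 CPM against 1.33 and 1.9 CPM. Cdca7, a partner of Hells, stood at 28.8 and 46.1 CPM against 2.21 and 1.38 CPM. Dnajc9, a histone chaperone, had log2 ratios of 2.70 and 2.64, and Dtl, part of the ligase that destroys Cdt1, 3.65 and 2.76. These carry replication roles although the lists did not hold them. On the lower side stood Tnfrsf9, the costimulatory receptor 4-1BB, at 2.06 and 0.677 CPM (4 UMIs and 1 UMI) against 12.4 and 13.2 CPM. Thbs1 (thrombospondin) stood at 5.15 and 4.74 against 25.6 and 29.2 CPM.

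MHC class II genes were lower by more in the non-responder library. Their 10 measured genes had medians of -0.80 and -0.32, with none past 1.5-fold in both libraries. H2-Eb1 stood at 862 and 7540.3 CPM in S-phase and 1932 and 9434 CPM in low-Mcm cells. Mki67-high macrophages again lay nearer to the members. Class II genes summed to 8847 and 58260 CPM in S-phase, 9541 and 54810 CPM in Mki67-high and 17045 and 71951 CPM in low-Mcm cells. Over the 7 genes measured against Mki67-high cells the medians were -0.09 and 0.05. The lower class II level was thus not particular to S-phase cells. MHC class I genes had medians of 0.06 and -0.03 (14 genes).

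Chemokines split. Ccl7, a ligand of the monocyte receptor CCR2, was higher, at 1561 and 1331 CPM against 644 and 802 CPM. Its neighbour Ccl12 stood at 3978 and 1153 CPM against 1778 and 799 CPM, past 1.5-fold in the non-responder library alone. The T cell attractant Ccl5 was lower, at 73.1 and 672 CPM against 576 and 2029 CPM, and so was the inflammatory cytokine gene Il1b at 145 and 214 against 269 and 587 CPM. Immediate early genes, which cell isolation can induce, had medians of -0.53 and -0.43 over 15 genes, and their part in the other differences was not tested.

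**Figure D4:**
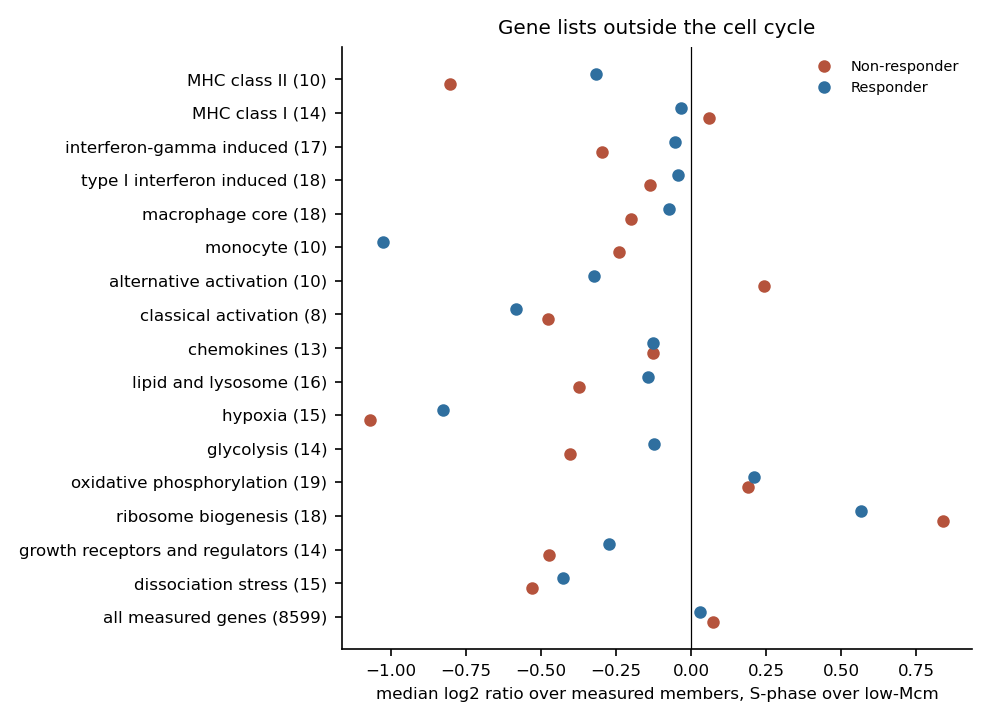
Median log2 ratio of S-phase over low-Mcm macrophages over the measured members of each list outside the cell cycle (number in parentheses), by library. Hypoxia lies lowest in the non-responder library (-1.07) and ribosome biogenesis highest in both (0.84 and 0.56), while all measured genes lie near 0.

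Markers of other cell types were summed over each list. T cell markers stood at 13.4 and 16.3 CPM against 32.1 and 28.5 CPM in low-Mcm cells, tumour epithelial markers at 6.7 and 8.13 against 3.68 and 5.95 CPM, and fibroblast markers at 4.64 and 6.77 against 5.08 and 5.1 CPM. The Cd3 genes were at 0 by the rule. Of the 10 tumour epithelial markers 8 and 9 were at 0, and of the 10 fibroblast markers 6 and 7. Dendritic markers stood higher in the members, at 32.5 and 73.8 CPM against 22.8 and 52.7 CPM, with 7 of 12 at 0 in each library. Batf3, the 1 measured gene among them, stood at 29.9 and 57.6 CPM, log2 ratios of 0.64 and 0.73, past 1.5-fold in both libraries. Its part in the other differences was not tested. B cell markers stood at 27.3 and 59.6 CPM (Cd79b 25.2 and 56.2), with 5 and 4 of 8 at 0. Neutrophil markers stood at 28.8 and 19 CPM against 67.4 and 32.2 CPM, with 4 and 7 of 10 at 0. Mast cell and erythroid markers were each at most 2.06 CPM. Without the cells that had a tumour epithelial or fibroblast UMI, 544 genes were higher and 310 lower.

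The libraries were then compared within the S-phase macrophages, a contrast the rule did not use. Responder members carried far more RNA for antigen presentation by MHC class II and for interferon-gamma-induced genes, and far less for Spp1, Fn1 and several genes of resident and repair-type macrophages. Of 3288 genes measured with at least 100 UMIs, 89 (2.71%) were at least 2-fold higher and 102 (3.1%) at least 2-fold lower in the responder members. With TMM scaling the split was 109 and 78. The median over all measured genes was -0.10. The responder members were shallower (13754 against 16131 UMIs per cell), and with every cell thinned to 5000 UMIs 44 and 37 genes were past 2-fold among fewer measured genes.

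Markers of other cell types also differed between the libraries, in S-phase and low-Mcm cells alike. NK cell markers summed to 8.76 and 82.7 CPM in the members and to 10.3 and 85.5 CPM in low-Mcm cells. Nearly all of this was Klrk1 (8.76 and 80.6 CPM), and 7 and 5 of the 8 markers were at 0 in the members. Endothelial markers summed to 21.6 and 71.1 CPM, led by Eng (12.9 and 42 CPM), with 4 of 8 at 0 in each library. Dendritic and B cell markers, given above, were higher in the responder members too. The part of these differences in the values below was not tested.

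Of 7 measured MHC class II genes 6 were higher, with a median log2 ratio of 2.64. The beta chain gene H2-Ab1 (GRCm38 chr17:34257689-34269419) stood at 1364 CPM in non-responder and 11318 CPM in responder members, log2 3.05 [2.99 to 3.11]. Per cell it ranged from 0 to 20609.8 CPM with a median of 204 CPM in non-responder members, and from 867 to 28711.7 CPM with a median of 10981 CPM in responder members. The ranges overlapped, while the upper quartile of the non-responder members (1289 CPM) lay below the lower quartile of the responder members (7509 CPM). H2-Eb1 had a log2 ratio of 3.13 [3.05 to 3.20] and the invariant chain gene Cd74 2.64 [2.60 to 2.67]. Their inducer Ciita, below the minimum of 100 UMIs, stood at 3.09 and 26.4 CPM. H2-DMb2 was the exception at -0.04, and its counts can be split with those of its near copy H2-DMb1 (1.77). Of 12 measured MHC class I genes 11 had a ratio above equality, with a median of 0.70, and 1, Psmb9, was past 2-fold. Over all measured genes 1274 of 3288 had a ratio above equality.

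The interferon-gamma list behaved alike: 13 of its 15 measured members were past 2-fold upward (median 2.24). Cxcl9, a ligand of CXCR3 on T cells (GRCm38 chr5:92321347-92328079), stood at 23.7 [17.3 to 31.6] CPM in non-responder and 667 [626 to 710.3] CPM in responder members, log2 4.82 [4.39 to 5.28]. A single cell held 45.7% of the non-responder Cxcl9 UMIs, and without it the level was 13 CPM. Gbp2b, a guanylate-binding protein gene, stood at 0.515 CPM (1 UMI) and 69.8 CPM, a log2 ratio of 7.08 [4.57 to 12.40]. Its near copy Gbp2 had 2.24, and counts can be split between such paralogs. Ifitm1, which stands outside the list, was at 24.7 and 394 CPM. Within the list Fam26f and Serpina3g had log2 ratios of 3.99 and 3.59. Cxcl10, which shares the receptor of Cxcl9, had 0.57, short of 2-fold, as did Irgm1. Of 14 type I interferon genes none was 2-fold higher and 1, Rsad2, was lower.

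The genes lower in responder members were led, apart from Retnla (below), by Fn1 (fibronectin, GRCm38 chr1:71585520-71653200), at 432 [403 to 462] and 12.9 [7.75 to 20.1] CPM, log2 -5.07 [-5.81 to -4.42]. Spp1 (osteopontin) stood at 1459.8 and 58.9 CPM, log2 -4.63 [-4.96 to -4.32]. Pmp22 stood at 51.5 and 2.03 CPM. The folate receptor gene Folr2, found on resident-type macrophages, stood at 93.7 and 10.2 CPM, and Pf4, the platelet factor chemokine, at 1100.3 and 181 CPM. Of 7 measured alternative activation genes 5 were lower and 1, Tgm2, was higher. Among 12 chemokines 5 were lower and 2, Ccl5 and Ccl8, higher. Without the single cell described below, which carries the calls of Retnla and Ccl6, 4 of 6 alternative activation genes and 4 of 12 chemokines were lower, and 1 and 2 higher.

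Of 42 measured genes of the licensing, helicase activation, fork, repair and chromatin assembly lists (6, 3, 17, 5 and 11), 0 were past 2-fold in either direction. Over all genes 2.71% were higher and 3.1% lower, so few calls among 42 genes would match the background. The list medians ranged from -0.10 to 0.10. In nucleotide supply 1 gene of 14, the purine enzyme gene Atic, was lower, at 74.7 and 34.6 CPM. Ung had a log2 ratio of 0.76 [0.29 to 1.23] and Cdt1 0.59 [0.08 to 1.11]. Because both libraries were held to the same Mcm minimum, this count is partly set by the rule.

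The same library contrast was read in low-Mcm macrophages. Of the genes past 2-fold in S-phase cells, 89 of 89 higher and 101 of 102 lower genes lay on the same side of 0 there, Retnla being the exception. The same share over all 3288 measured genes is not given, so these counts do not set the called genes apart. In low-Mcm cells the MHC class II median was 1.99 and the interferon-gamma median 1.73. The difference between the contrasts was at least 1.5-fold upward for 72 (2.19%) and downward for 75 (2.28%) of 3285 genes. Cxcl9 differed by 1.56 [1.12 to 1.99] log2 units more in S-phase than in low-Mcm cells, Ccl5 by 1.38 [1.13 to 1.64], the C-type lectin gene Klrb1b by 1.99 [1.17 to 2.82] and Ccl8 by 1.22 [0.89 to 1.56]. In the non-responder library 12.9% of S-phase and 14.1% of low-Mcm cells had a Cxcl9 UMI, with a per-cell median of 0 in both. The value for Cxcl9 depended on the Mcm limit. Its non-responder levels at 8 and at 9 to 11 Mcm UMIs rested on 3 and 7 UMIs. In the non-responder library Cxcl9 stood at 113 CPM at 5 to 7 Mcm UMIs, 8.85 at 8, 9.07 at 9 to 11 and 43.3 at 12 or more, and the library ratio in these bands was 2.68, 6.89, 6.05 and 3.59 on the log2 scale, so just below the limit it was smaller than in low-Mcm cells. H2-Ab1 differed by 0.68 [0.62 to 0.75]: within the non-responder library it was lower in S-phase than in low-Mcm cells (1364 against 2796 CPM), and within the responder library less so (11318 against 14441 CPM). Low-Mcm cells with 8 or more mitotic UMIs were near the members, with H2-Ab1 at 1418 and 11836 CPM. For 531 of 3285 genes the counting interval of the difference between the contrasts left out 0. That interval does not cover the spread between cells or mice. Of these, 68 were also past 1.5-fold upward and 71 downward. Slamf7, a receptor gene of the SLAM family, stood at 19.1 and 79.3 CPM in S-phase and 59.1 and 89 CPM in low-Mcm cells. Plac8, a monocyte gene, went the other way, at 38.6 and 24.4 CPM in S-phase and 45.4 and 115 CPM in low-Mcm cells. A single cell held 30.7% of the non-responder Plac8 UMIs and 21.4% of those of Klrb1b.

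One non-responder member set several values on its own. This cell had 27671 UMIs, 12 Mcm UMIs and 0 mitotic UMIs. It held 1768 of the 1771 Retnla UMIs of the non-responder members, 648 of 943 for Ccl6, 277 of 462 for Lyz1 and 109 of 839 for Fn1. Without it the log2 ratio of responder over non-responder was -0.77 in place of -2.43 for Ccl6, -1.73 in place of -3.03 for Lyz1 and -4.89 in place of -5.07 for Fn1. Without it 85 genes were 2-fold higher and 92 lower in responder members. Another single cell held 69.1% of the non-responder Tppp3 UMIs.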

How the data were processed

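The values deposited by the authors are raw UMI counts per gene and barcode (27998 genes), not normalized, from a 10x Genomics 3' v3 kit per the labels' protocols. Cell Ranger 1.1.0 and the builds GRCm38 and mm10 are named in the submitters' processing notes. Counts were summed over the cells of each group and library, and log2 ratios of the sums were given with exact conditional binomial intervals, CPM with exact Poisson and shares with exact Clopper-Pearson intervals, all at 95%. Differences between library contrasts were given with a normal approximation on the log scale, also at 95%. A count of 0 was set to 3 counts in ratios. A gene was measured with 50 UMIs over both cell groups in each library (S-phase against low-Mcm or Mki67-high), or with 100 UMIs over both libraries. The ratio step was tested on simulated data. Gene coordinates are those of GENCODE M21 (GRCm38). Python 3.11.15, numpy 2.4.6, scipy 1.17.1, pandas 2.3.3 and matplotlib 3.10.9 were used, with edgeR 4.0.16 in R 4.3.3 for TMM factors only.

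The cells and gene lists were chosen with earlier results of these data known. Genes named were those of the selection with Ung and Cdt1; the 15 highest and 10 lowest against low-Mcm cells by the weaker library, and 10 and 10 outside the cell cycle lists; the 12 highest and 12 lowest between libraries; the 6 and 6 most extreme differences of that contrast; for each list its 2 highest, 2 lowest and 2 most abundant measured members; other-type markers at 10 CPM or more; and the 6 and 6 most extreme against Mki67-high cells. Further genes were chosen after their values were seen, and some genes that the rule names are not reported here. No doublet caller was run, and the alternatives are given in the closing section.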

Additional observations from a re-analysis of the deposited data

Results flagged for a closer look

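Fn1, Ccl6 and Retnla lay on opposite sides of equality in the libraries when S-phase macrophages were set against low-Mcm macrophages, and these differences were not tested. Fn1 had a log2 ratio of 0.74 in the non-responder and -1.07 in the responder library. Ccl6 had 0.94 and -0.63. Retnla had 6.95 and -2.45, the latter computed with 3 counts in place of the 0 UMIs of the responder members. The single non-responder cell that held nearly all Retnla UMIs sets the sign for Ccl6 and Retnla, which became -0.72 and -2.23 without it, while Fn1 became 0.56.

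Barcodes outside the C1q macrophages also met the Mcm and mitotic limits. There were 17 in the non-responder library, 7 of them with a Cd3 UMI, and 10 in the responder library, 9 of them with a Cd3 UMI. They entered no comparison.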

How the results depend on the processing

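No paired analysis was possible because each response group had 1 library and the labels give no replicate numbers. For the same reason no library could be left out. The share of S-phase macrophages (non-responder, responder) was 9.04% and 4.86% with a minimum of 6 Mcm UMIs, 2.37% and 0.874% with 12, 2.32% and 1.19% after thinning to 8000 UMIs, 3.49% and 1.94% with 0 mitotic UMIs and 13.4% and 6.99% with no mitotic limit. It was 4.65% in the non-responder library with at least 0.06% Mcm UMIs and 3.62% in the responder library among cells of 8000 to 20000 UMIs. It was higher in the non-responder library under every one of these alternatives.

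Against low-Mcm cells, 958 genes were higher at a minimum of 10 UMIs, and 150 were lower when counting intervals also had to leave out equality. Between the libraries, 44 genes were higher and 37 lower after thinning to 5000 UMIs, 52 and 52 with 12 Mcm UMIs, and 306 and 486 at a minimum of 20 UMIs. TMM scaling moved the median of all genes to -0.06 and -0.05 against low-Mcm cells. Among cells of 8000 to 20000 UMIs Ccl6 was at -0.49, Lyz1 at -0.17 and Retnla at -1.77 against low-Mcm cells in the non-responder library. Without the Retnla cell Ccl6 was at -0.72 and Retnla at -2.23. With 12 Mcm UMIs G2e3 was at 1.27 and Mxd3 at 0.80 in the responder library, both with 0 UMIs set to 3. The histone median of the responder library was 0.74 at 10 UMIs, and the G2/M medians were 0.97 and 1.39 against low-Mcm cells with at most 1 mitotic UMI. The cause of these changes was not tested, apart from the Retnla cell and the fewer or more genes measured. The reference of at most 1 mitotic UMI, the interval requirement, the share among cells of 8000 to 20000 UMIs, and leaving out shared barcodes or the Retnla cell were added after seeing the data.

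With 1 library per group neither the spread between mice nor between libraries is known. DNA content was not measured, doublets and free RNA were not removed, and depth differed between cell groups and libraries.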

Other observations

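Respiratory chain genes stood slightly higher in S-phase than in low-Mcm macrophages, with medians of 0.19 and 0.21 (non-responder and responder) over 19 genes. Only Cycs, which encodes cytochrome c, was past 1.5-fold in both libraries, at 409.5 and 512 CPM against 241 and 302 CPM. Between the libraries none of the 18 measured respiratory genes and none of the 12 measured glycolysis genes was past 2-fold in S-phase cells.

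Lipid and lysosome genes had medians of -0.37 and -0.15 against low-Mcm cells. Lpl (lipoprotein lipase) was the 1 higher gene and Fabp5 and Abca1 were the 2 lower genes among 16. Against low-Mcm cells with at most 1 mitotic UMI Lpl was no longer past 1.5-fold in both libraries (log2 0.52 and 0.89), and Fabp5, Abca1 and Lgals3 were the 3 lower genes. Lpl stood at 25.2 and 8.81 CPM against 16.6 and 4.54 CPM, and the cholesterol exporter gene Abca1 at 41.7 and 33.9 against 65 and 59.3 CPM. Within S-phase cells 3 of 6 measured hypoxia genes were lower in the responder library and none was higher, with a median of -0.71, against -1.10 in low-Mcm cells.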
